A study of Homo sapiens with 16 samples.

Results

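Described here is the response of TMD8 cells to MI-2, from the 7 arrays labelled as TMD8 after 8 h with MI-2 (3 arrays) or vehicle (4 arrays) out of the 16 arrays of the study. TMD8 is an established human cell line of activated B cell-like diffuse large B cell lymphoma (ABC-DLBCL). The other arrays held TMD8 with z-VRPR-fmk (1 array, numbered 4) and the ABC-DLBCL line HBL-1 with vehicle, MI-2 or z-VRPR-fmk, all for 8 h. The arrays were picked by label alone, with no use of expression values, and all genes past a filter on dim probes were compared (17573 of 34687 named genes). The labels name neither dose nor vehicle, nor whether replicate arrays are separate cultures. The p-values therefore cover only array-to-array spread, which may be technical.

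MALT1 is a paracaspase that works with BCL10 in the CBM complex, which carries signals from the B cell receptor to the kinase complex that frees NF-kB. It acts as a scaffold and as a protease that cleaves brakes on the pathway, among them TNFAIP3 (A20), CYLD, RELB and the RNase Regnase-1 (ZC3H12A). ABC-type lymphoma lines depend on this signalling, through which NF-kB drives survival genes and cytokines such as IL-6 and IL-10, which in turn act through STAT3. MI-2 is a small-molecule inhibitor of MALT1.

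Among NF-kB genes of 4 lists (subunits and inhibitors, survival targets, cytokine and chemokine targets, surface receptor and regulator targets) 70 were measured, and 33 of these had a promoter in the RefSeq table used here. Both strands of the 250 bases before each start site were searched for a kB motif, taken as GGGA, any 2 bases and TTCC. It was found in 7 of the 33, and in 1.61% of all 35116 promoters of the table (250 bases before to 50 after the start). The 7 stretches are shown because they are the NF-kB sequences beside which the values below can be read. They are in gene orientation on GRCh38.p14, with the match in capitals (REL holds overlapping matches on either strand).
CXCL10 (chr4:76023645-76023694, minus strand): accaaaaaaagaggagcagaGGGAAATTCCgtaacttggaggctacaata
CXCL11 (chr4:76036117-76036166, minus strand): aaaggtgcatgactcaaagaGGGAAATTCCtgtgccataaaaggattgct
IL6 (chr7:22727107-22727156, plus strand): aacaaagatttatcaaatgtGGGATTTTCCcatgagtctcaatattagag
NFKBIA (chr14:35404801-35404850, minus strand): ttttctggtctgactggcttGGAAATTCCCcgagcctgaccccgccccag
REL (chr2:60881507-60881557, plus strand): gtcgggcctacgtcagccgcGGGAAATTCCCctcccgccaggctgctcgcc
RGS1 (chr1:192575647-192575696, plus strand): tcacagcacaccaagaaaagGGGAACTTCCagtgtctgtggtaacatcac
TNFAIP3 (chr6:137867172-137867221, plus strand): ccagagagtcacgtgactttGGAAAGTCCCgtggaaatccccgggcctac
Of all tested genes with 1 promoter, the 101 with the motif had a median change of -0.02 and those without it of -0.01, on the log2 scale. A match describes letters and is no evidence of binding.

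Levels are normalized log2 intensities, and a change is the mean of the MI-2 arrays minus the mean of the vehicle arrays with its standard error (SE) from limma. The TMD8 arrays had median raw intensities of 83.2 to 93.2 and 36.4% to 40.8% of probes detected. B cell markers were present: 7 of 8 were detected on all 7 arrays. Among other marker lists, T cells had 4 of 11 genes measured, NK cells 1 of 7 and myeloid cells 4 of 12. The erythroid list had 4 of 7, the epithelial list 4 of 8 and the fibroblast list 2 of 7. The plasma cell list had 6 of 7. Measured means past the filter on dim probes, which also counts detection on arrays outside this comparison. Detected on all 7 arrays were 1 T cell gene, 1 myeloid gene, 1 epithelial gene and 6 plasma cell genes. For the NK cell, erythroid and fibroblast lists that count was 0. No marker passed the test. Their summed linear levels ranged over 113 to 146 with vehicle and 114 to 150 with MI-2 for T cells, and over 265 to 324 and 297 to 370 for myeloid cells. For plasma cells they were 5775 to 7214 and 6064 to 7101.

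TMD8 arrays of the same number were on the whole more alike than arrays of the same treatment. Pearson's r over the 17573 genes was 0.9885 to 0.993 (median 0.9918, 3 pairs) between MI-2 and vehicle arrays of the same number and 0.9864 to 0.9897 (median 0.9888, 9 pairs) between arrays of the same treatment. These are descriptions across genes, which are not independent replicates. The first principal component held 23.0% of the variance and set the arrays numbered 1 (15.9 for vehicle, 23.4 for MI-2) apart from those numbered 3 (-13.5 and -15.1). None of the first 4 components separated the treatments. The second set MI-2 2 apart (29.3) and the third vehicle 4 (26.1), which has no MI-2 array of its number. Same-numbered arrays are treated as pairs here, although the labels do not say what they share. Differences within pairs 1, 2 and 3 are given beside the group means where they move a count or median most. They come from a fit with the array number as a block. Vehicle 4 does not enter that fit's MI-2 value. A change or median with the block thus equals that by group means without vehicle 4, and only its SE and p-value differ.

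**Figure D1:**
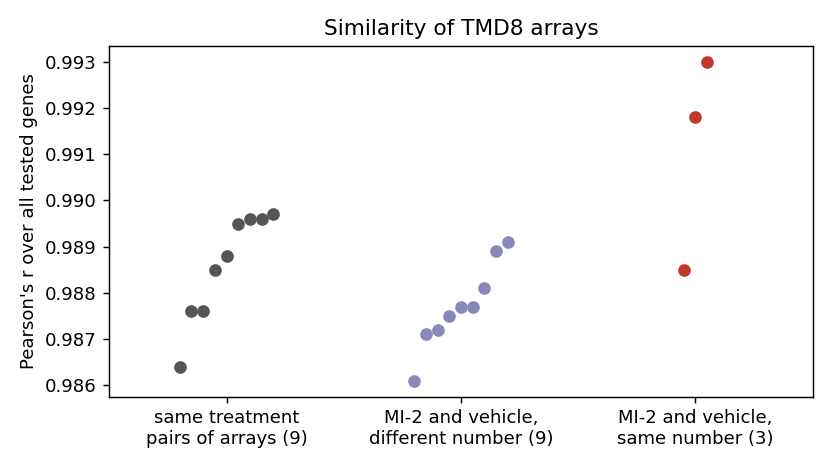
Pearson's r over genes (vertical axis) between TMD8 arrays, with 1 point per pair of arrays. The same-number MI-2 and vehicle pairs reach 0.993, with 1 of the 3 at 0.9885, while arrays of the same treatment reach 0.9897.

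No gene passed an adjusted p under 0.05 (limma, Benjamini-Hochberg over 17573 genes, two-sided; 0 called, 0%). An unadjusted p under 0.05 was reached by 816 genes (4.64%), of which 379 were higher with MI-2 (2.16%) and 437 lower (2.49%). The MI-2 arrays lay all above or all below the vehicle arrays for 980 genes (5.58%; 2.56% above and 3.02% below). With the block limma also called 0 genes, while 1086 reached an unadjusted p under 0.05 (6.18%), and no adjusted p was below 0.63. Changes were small: the median size was 0.105 on the log2 scale, 99 in 100 genes lay within 0.516, and 2 genes lay beyond 1. The 95% interval of the fitted change lay within 0.5 of 0 for 62.4% of genes and within 1 for 98.9%. Of all tested genes, 61.5% were detected on all 7 TMD8 arrays. Where a group was undetected, the interval does not bound the change.

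The genes of the CBM complex and of kinase activation below it were all measured (20 of 20), with 10 higher and 10 lower and a median change of 0.00 (all genes: -0.01). MALT1 stood at 7.05, 7.26, 7.03 and 6.94 on the vehicle arrays and at 6.996, 7.18 and 7.18 on the MI-2 arrays. The groups overlapped, and the change of 0.05 (SE 0.14) had a 95% interval of -0.26 to 0.35. BCL10, its adaptor partner, was at 0.20 (SE 0.15), but its other probe was at -0.06. IKBKB, the catalytic kinase that marks NF-kB inhibitors for destruction, was at 7.61, 7.53, 7.22 and 7.40 with vehicle and at 7.82, 7.67 and 7.64 with MI-2. All MI-2 arrays lay above all vehicle arrays, yet the change of 0.27 (SE 0.12) had an adjusted p of 0.999 in limma. SHARPIN, a subunit of the linear ubiquitin ligase, lay at -0.42 (SE 0.17, adjusted p = 0.999), with lower values in all 3 pairs.

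The mRNAs of MALT1's protein substrates numbered 13 measured of 14, with 10 higher, 3 lower and a median change of 0.05 (-0.01 with arrays scaled to their medians, relative to the median gene). ZC3H12A, the Regnase-1 gene, was at 0.18 (SE 0.12), TNFAIP3 at 0.08 (SE 0.20), CYLD at 0.01 (SE 0.22) and RELB at 0.01 (SE 0.17). None passed, and the groups overlapped for each of these. RC3H2, which encodes Roquin-2, an RNA-binding repressor of immune mRNAs, had all MI-2 arrays below all vehicle arrays, at -0.34 (SE 0.15, adjusted p = 0.999). These values concern the substrates' RNA, and cleavage of the proteins was not measured. The mRNAs that Regnase-1 and Roquin degrade (13 measured) had a median of -0.04, with 5 higher and 8 lower.

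NFKBIA, which encodes the inhibitor IkB-alpha and is itself an NF-kB target, showed no separation. It stood at 11.81, 11.61, 12.10 and 11.80 with vehicle and at 11.93, 11.65 and 11.98 with MI-2. The change of 0.02 (SE 0.14) had an interval of -0.27 to 0.32, so that a drop of NFKBIA by 0.5 or more on the log2 scale lay outside it. Over the 70 NF-kB genes 26 were higher and 44 lower, with a median of -0.05 by group means and -0.10 with the block. An unadjusted p under 0.05 was reached by 4 of them (4.64% of all genes), and 5 had all MI-2 arrays below all vehicle arrays (3.02% of all genes) against 0 above (2.56%). For 29 of the 70 the 95% interval lay within 0.5 of 0 and for 67 within 1. Of the other genes with a kB match, REL was at -0.04 (SE 0.17), RGS1 at -0.10 (SE 0.37), CXCL10 at 0.37 (SE 0.25) and CXCL11 at -0.30 (SE 0.14).

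**Figure D2:**
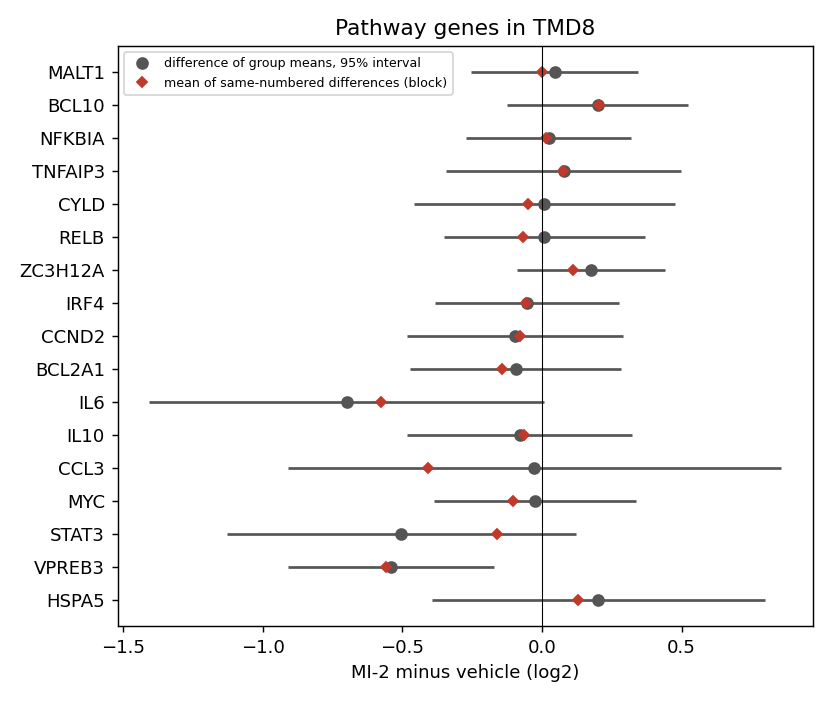
Change with MI-2 in TMD8 (log2, horizontal axis) for 17 pathway genes, with 95% intervals from limma over 4 vehicle and 3 MI-2 arrays, and the value from same-numbered differences as diamonds. MALT1, NFKBIA and RELB lie within 0.05 of 0, while IL6 lies at -0.70 with an interval that reaches 0.01.

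Subunits and inhibitors of NF-kB (16 measured) had a median of -0.06, with 7 higher and 9 lower, and 7 were lower in all 3 pairs against 0 higher (14.4% and 12.6% of all genes). Their median was 0.001 without MI-2 2 and -0.002 without vehicle 1. TNIP3, an inhibitor that works with TNFAIP3, was detected on 2 of 4 vehicle arrays and on none with MI-2, which makes it at least 1.04-fold lower (adjusted p = 0.952). Such a bound sets the brighter group's mean against the dimmest detected signal of the other group's arrays. Survival targets (15 measured) had a median of -0.09, with 4 higher and 11 lower, and of -0.01 without MI-2 2 and -0.19 without MI-2 3. BCL2A1, an anti-apoptotic BCL2 relative, was at -0.09 (SE 0.18). XIAP, a caspase inhibitor, was at -0.43 (SE 0.20, adjusted p = 0.999) with the groups apart. Its detected arrays were 4 with vehicle and 1 with MI-2. Surface receptors and regulators (21 measured) had a median of -0.05, with 6 higher and 15 lower, and 8 were lower in all 3 pairs against 0 higher. At an unadjusted p under 0.05, 1 was lower by group means (2.49% of all genes) and 3 with the block (3.39% of all genes). The 3 were STAT5A, TNFRSF1B and CD40, the last named after its values were seen. The adhesion receptor CD44 (-0.21, SE 0.15) and the TNF receptor TNFRSF1B (-0.23, SE 0.13) had the groups apart. IRF4, a transcription factor on which ABC-type lines depend, was at -0.05 (SE 0.16), MYC at -0.03 (SE 0.17) and the cell cycle gene CCND2 at -0.10 (SE 0.18). STAT5A, a cytokine-activated transcription factor, lay at 5.77, 5.56, 6.07 and 5.44 with vehicle and 4.61, 4.70 and 5.57 with MI-2. MI-2 arrays 1 and 2 lay below every vehicle array and MI-2 array 3 among them, with a change of -0.75 (SE 0.22, adjusted p = 0.794). It was at -0.28 in the authors' deposited log2 values.

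Cytokine and chemokine targets were where same-numbered arrays and group means differed most within the NF-kB lists. Of 18 measured, 9 were higher and 9 lower by group means (median -0.01). At an unadjusted p under 0.05, 2 were lower and 0 higher (2.49% and 2.16% of all genes). By pairs 8 were lower and 2 higher in all 3 pairs (background 14.4% and 12.6%). With the block the median was -0.16, with 6 lower at an unadjusted p under 0.05 (3.39% of all genes) and 1 higher (2.79%). The group means without vehicle 4 give the same median by construction, since the block's MI-2 value leaves that array out. IL6, the autocrine cytokine of these lymphomas, stood at 6.43, 5.21, 7.02 and 6.71 with vehicle and at 5.96, 4.87 and 6.095 with MI-2. Each MI-2 array lay below the vehicle array of its number, but the groups overlapped because both arrays numbered 2 were low. The change was -0.70 (SE 0.33, adjusted p = 0.999), and -0.58 (SE 0.13, adjusted p = 0.646) with the block. Without MI-2 2 it was -0.31 and without vehicle 2 it was -1.08. CCL3, a chemokine that B cell receptor signalling induces, stood at 6.70, 6.22, 7.94 and 5.43 with vehicle and at 6.49, 5.83 and 7.31 with MI-2. Every pair was lower with MI-2, by 0.21, 0.39 and 0.63 in size, and vehicle 4 was the lowest of all 7 arrays. The change was thus -0.03 (SE 0.42) by group means and -0.41 (SE 0.12, adjusted p = 0.752) with the block, and it was 0.43 without vehicle 3. CCL3L1 and CCL4L1, near copies of CCL3 and CCL4 whose probes may read both, were also lower in all 3 pairs (-0.37, SE 0.21, and -0.44, SE 0.19, with the block). CCL5, a T cell-attracting chemokine, was at -0.46 (SE 0.20, adjusted p = 0.999) with the groups apart, and its other probe was at -0.15.

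Lymphotoxin beta (LTB), a membrane ligand of the TNF family named, like CCL3L1 and CCL4L1, after its values were seen, was the other way round in all 3 pairs, at 0.28 (SE 0.10) with the block and 0.13 (SE 0.24) by group means. CXCL10 was also higher in all 3 pairs, but by no more than 0.08. IL10, the other cytokine linked to STAT3 in this lymphoma, was at -0.08 (SE 0.19), with pair differences of -0.33, 0.38 and -0.24 that did not share a sign. Of the receptor-to-STAT3 pathway 19 genes were measured, with 7 higher and 12 lower and a median of -0.03. With the block 2 of them, IL6 and SOCS3, were lower at an unadjusted p under 0.05 (3.39% of all genes), against 0 by group means (2.49%). SOCS3, a feedback inhibitor that STAT3 induces, named after its values were seen, stood at 7.02, 6.12, 7.39 and 6.48 with vehicle and at 6.195, 5.77 and 6.84 with MI-2. Each pair was lower with MI-2 and the groups overlapped (-0.48, SE 0.26 by group means, -0.57, SE 0.12, with the block, adjusted p = 0.63). STAT3 itself was at -0.50 (SE 0.29), with vehicle 4 at 10.94 and the other vehicle arrays at 9.36 to 9.92, and at -0.16 without vehicle 4. Of its 2 other probes, 1 was at -0.87. JAK2, a kinase upstream of STAT3, was at 0.25 (SE 0.15).

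**Figure D3:**
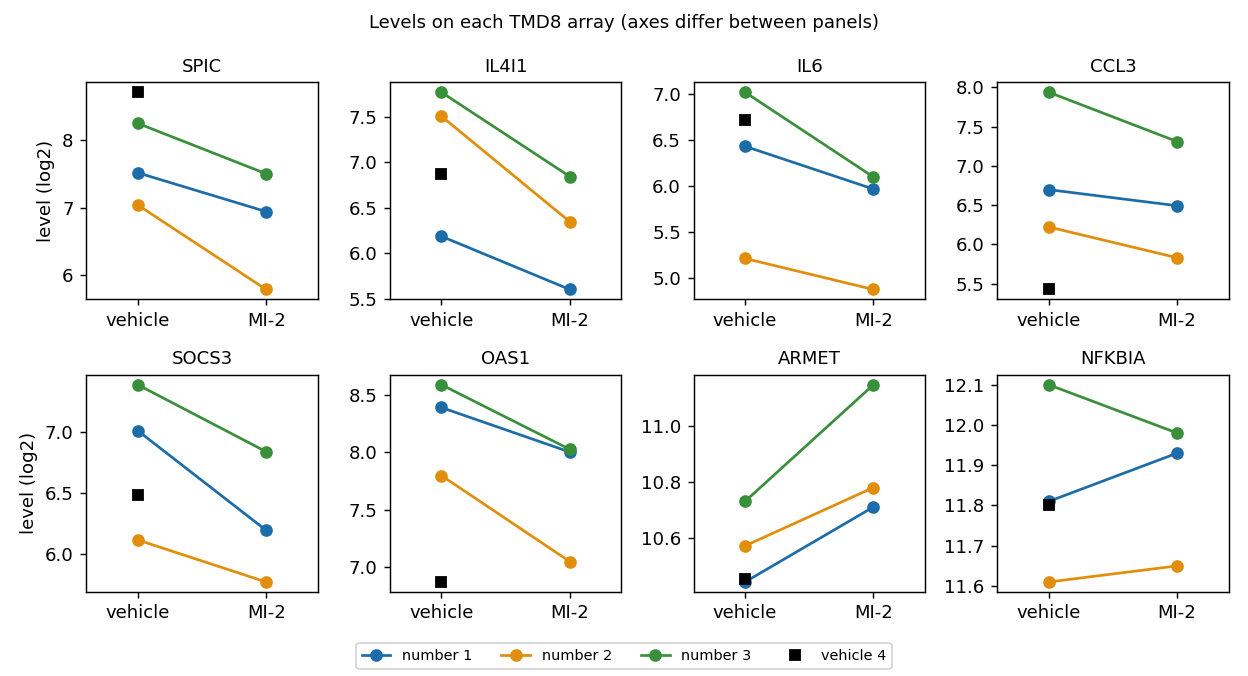
Level (log2, vertical axis) of 8 genes on each TMD8 array, with same-numbered vehicle and MI-2 arrays joined by a line and vehicle 4 as a square. SPIC, IL4I1, IL6, CCL3, SOCS3 and OAS1 slope down in all 3 pairs and ARMET slopes up, while NFKBIA has no common slope; the spread between numbers is as large as the slopes or larger in most panels.

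Type I interferon response genes, antiviral effectors and sensors, depended on which arrays were set against each other. All 34 were measured, 17 higher and 17 lower by group means, with a median of 0.01 and 0 at an unadjusted p under 0.05 in limma. Their median deviation from the 7-array mean was 0.59, -0.11, 0.20 and -0.64 on vehicle arrays 1 to 4 and 0.51, -0.49 and 0.01 on MI-2 arrays 1 to 3. The level thus followed the array number, high on both arrays numbered 1, with each MI-2 array below its vehicle partner and vehicle 4 the lowest. In all 3 pairs 15 members were lower and 1 higher (14.4% and 12.6% of all genes). With the block the median was -0.19 and 9 members were lower at an unadjusted p under 0.05 (3.39%) against 0 higher. By group means the list's median was -0.21 without MI-2 1, 0.19 without vehicle 1 and 0.28 without MI-2 2. Without vehicle 4 it was -0.19, which is the block's value by construction.

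OAS1, an antiviral sensor of double-stranded RNA, and IFI44L, an interferon-induced gene, were named after their values were seen. OAS1 stood at 8.39, 7.80, 8.59 and 6.87 with vehicle and at 8.00, 7.05 and 8.03 with MI-2. All pairs were lower with MI-2, and the change was -0.22 (SE 0.35) by group means and -0.57 (SE 0.12, adjusted p = 0.63) with the block. IFI44L was at -0.34 (SE 0.66) and -0.54 (SE 0.12). CXCL10, which interferon and NF-kB both induce, had the highest moderated t of the list and stood at 11.64, 11.28, 11.52 and 10.18 with vehicle and at 11.67, 11.37 and 11.54 with MI-2. Only vehicle 4 was low, and the pairs differed by 0.02, 0.08 and 0.02. HERC5, an interferon-induced ubiquitin-like ligase with the lowest t, was at -0.18 (SE 0.12) and was 0.02 with scaling to array medians.

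**Figure D4:**
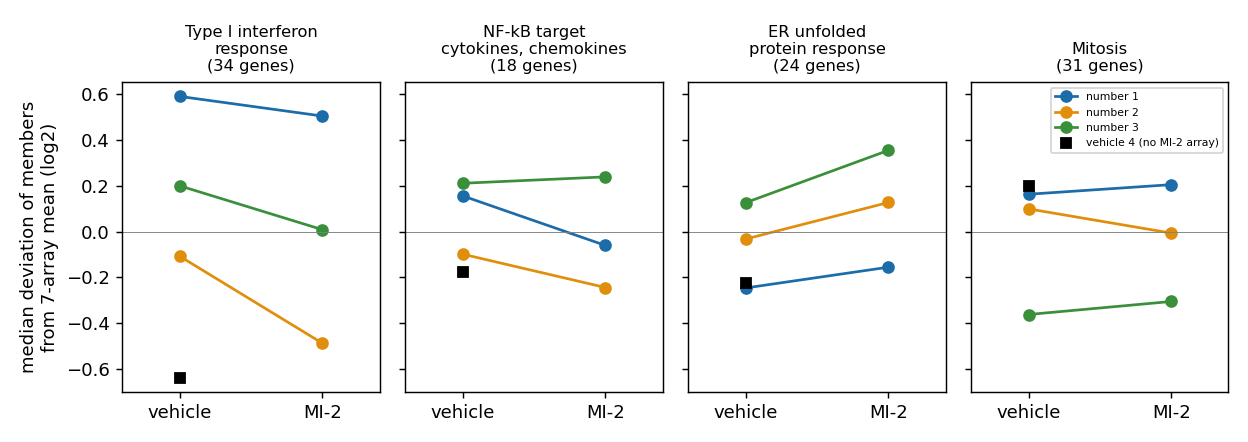
Median deviation of list members from their 7-array mean (log2, vertical axis) on vehicle and MI-2 arrays, with same-numbered arrays joined and vehicle 4 as a square. Interferon genes run from -0.64 to 0.59 across vehicle arrays, whereas genes of the unfolded protein response slope up in each pair, and the mitosis list lies low on both arrays numbered 3.

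Genes of the endoplasmic reticulum unfolded protein response, which fold, modify and clear secreted proteins, lay slightly higher with MI-2. Of 24 measured, 20 were higher and 4 lower, against 47.8% and 52.2% of all genes, and the median change was 0.17 (0.15 with the block, 0.08 with scaling to array medians relative to the median gene). In all 3 pairs 11 members were higher and 0 lower (12.6% and 14.4% of all genes), and 3 were higher at an unadjusted p under 0.05 (2.16%), namely ARMET and, named after their values were seen, PDIA4 and SEC61A1. None passed the adjusted threshold, and the list was chosen with earlier results of these data known. ARMET, now called MANF, a secreted stress protein, stood at 10.44, 10.57, 10.73 and 10.45 with vehicle and at 10.71, 10.78 and 11.15 with MI-2. Each pair was higher with MI-2 while the groups overlapped (0.34, SE 0.13, adjusted p = 0.999). The chaperone HSPA5 stood at 7.26, 8.10, 8.33 and 7.61 with vehicle and at 7.47, 8.11 and 8.51 with MI-2. Its spread among vehicle arrays exceeded its change of 0.20 (SE 0.28). SEC61B, a subunit of the translocation channel, had all MI-2 arrays above all vehicle arrays (0.17, SE 0.12, adjusted p = 0.999). ATF6, a sensor of the response, had the lowest t, at -0.11 (SE 0.11). The list's median deviation from the 7-array mean was -0.25, -0.03, 0.13 and -0.23 on vehicle arrays 1 to 4. On MI-2 arrays 1 to 3 it was -0.16, 0.13 and 0.36, so that the groups overlapped. Without MI-2 array 3, the highest, the list's median change was 0.07. Without vehicle 1 it was 0.11.

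The ER stress element, taken as CCAAT, any 9 bases and CCACG on either strand, was found in the 250 bases before the start of 4 of the 19 members with a promoter, and in 0.0769% of all promoters of the table. Of these genes, 3 with a single match are shown, because 20 of the 24 members were higher by group means (GRCh38.p14, gene orientation, match in capitals).
HSPA5 (chr9:125241371-125241429, minus strand): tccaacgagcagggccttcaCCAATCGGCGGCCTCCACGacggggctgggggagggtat
CALR (chr19:12938364-12938422, plus strand): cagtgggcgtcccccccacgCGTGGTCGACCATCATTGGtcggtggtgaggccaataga
CRELD2 (chr22:49918534-49918592, plus strand): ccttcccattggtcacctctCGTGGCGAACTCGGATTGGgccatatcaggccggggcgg
CRELD2, a secreted disulfide isomerase, was at 0.40 (SE 0.20), CALR, a calcium-binding chaperone, at 0.17 (SE 0.15) and HSP90B1, the fourth gene with matches, at 0.11 (SE 0.12). The 13 tested genes with the element had a median change of 0.02.

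The integrated stress response, in which ATF4 induces amino acid synthesis and transport genes, did not share this direction. Of 28 measured members 12 were higher and 16 lower, with a median of -0.01, 0 at an unadjusted p under 0.05 in limma and 0 past the adjusted threshold. ATF4 was at -0.05 (SE 0.11) and ALDH1L2, a mitochondrial folate enzyme, at -0.51 (SE 0.31). In HBL-1, where the same contrast has its own vehicle arrays, the median was 0.35. The difference between the lines (TMD8 less HBL-1) was itself tested: 9 of the 28 members had an unadjusted p under 0.05 (4.07% of all genes did) and 0 an adjusted one, with a median difference of -0.36. CEBPB, a stress and inflammation transcription factor named after its values were seen, was at -0.16 in TMD8 and 0.64 in HBL-1 (difference -0.80, SE 0.22), and ALDH1L2 differed by -1.35 (SE 0.44). For the unfolded protein response the HBL-1 median was 0.38, the median difference -0.19, and 1 of 24 members had an unadjusted p under 0.05. HSPA5 differed by -0.62 (SE 0.40).

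Over all genes the difference between the lines passed for 0 genes in limma (0%), where 715 reached an unadjusted p under 0.05 and the smallest adjusted p was 0.797. By moderated t the highest differences were SLC5A5, the sodium-iodide symporter, LOC100134560, HS.543151, LOC143666 and C11ORF83 (now UQCC3), an assembly factor of respiratory complex III. SLC5A5 was not detected on any TMD8 vehicle or MI-2 array, so its difference of 0.82 (SE 0.17) came from HBL-1. The lowest were LOC439992, PPIL2, LOC643894, LOC440563 and LOC651309, at -0.71 to -0.96. LOC643894 and LOC439992 were undetected on every TMD8 MI-2 array, so their differences rest on values at background. VPREB3, a chaperone of the pre-B cell receptor, was detected on 3 of 4 vehicle arrays and on 0 MI-2 arrays in TMD8, at least 1.12-fold lower (adjusted p = 0.901). Its change was -1.41 in HBL-1, and the difference of 0.87 (SE 0.25) is bounded by the same floor.

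The genes with the strongest moderated t whose groups did not overlap were mostly dim. The 12 highest and 12 lowest had sizes of 0.51 to 0.95 and adjusted p-values of 0.0666 to 0.714 in limma. In the authors' deposited log2 values the same 24 had sizes of 0.04 to 0.37, with a median of 0.22 against 0.64 here. Their median level was 5.04 against 5.88 for all genes, 6 of the 24 were detected on all 7 TMD8 arrays (61.5% of all genes), and 6 were undetected on every array of one group. For 12 the name in the files is neither a current RefSeq symbol nor a synonym of one. LOC100134560 stood at 4.29, 4.30, 4.43 and 4.38 on the vehicle arrays, where it was undetected, and at 5.18, 4.93 and 5.22 on the MI-2 arrays, where it was detected. It was at least 1.38-fold higher with MI-2 (fitted change 0.76, SE 0.11, adjusted p = 0.0666), and the adjusted p was 0.63 with the block. Among others that were higher were S100PBP, a partner of a calcium-binding S100 protein (0.52, SE 0.13, but 0.14 as the mean of its probes), EXOC8, a subunit of the exocyst (0.61, SE 0.15), the membrane channel PANX1 (0.66, SE 0.17) and PEG10, an imprinted gene of retrotransposon origin (0.51, SE 0.14). PEG10's other probe was at -0.04, and its change was 0.04 in the authors' deposited log2 values. NBPF8, of a family of near-identical copies that a probe may not tell apart, was at 0.82 (SE 0.20). The remaining ones on that side were HS.543151, LOC100131265, HS.459104, LOC442442, LOC651073 and HS.540819.

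On the lower side FAM57A, now called TLCD3A, stood at 5.64, 5.87, 5.47 and 5.74 with vehicle and at 4.91, 4.60 and 5.04 with MI-2. The groups did not overlap, and the change was -0.83 (SE 0.14, adjusted p = 0.24). ELMO3, an engulfment and motility adaptor, was at -0.95 (SE 0.19) and MAPK12, the p38-gamma stress kinase, at -0.83 (SE 0.18), each detected on 4 vehicle and 2 MI-2 arrays. SERPIND1, which encodes heparin cofactor II, was at -0.61 (SE 0.13), and PTPN23, a phosphatase relative of the endosomal sorting machinery, at -0.58 (SE 0.13). JAM2, a junctional adhesion protein undetected on every MI-2 array, was at least 1.35-fold lower (adjusted p = 0.517). PPIL2, a cyclophilin-like ubiquitin ligase, was at -0.61 (SE 0.13), but its other probe was at 0.13. LOC651309, LOC100129445, LOC729950, HS.60257 and LOC100133312 completed this side. Of the 24 genes, 15 had the same sign in HBL-1.

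**Figure D5:**
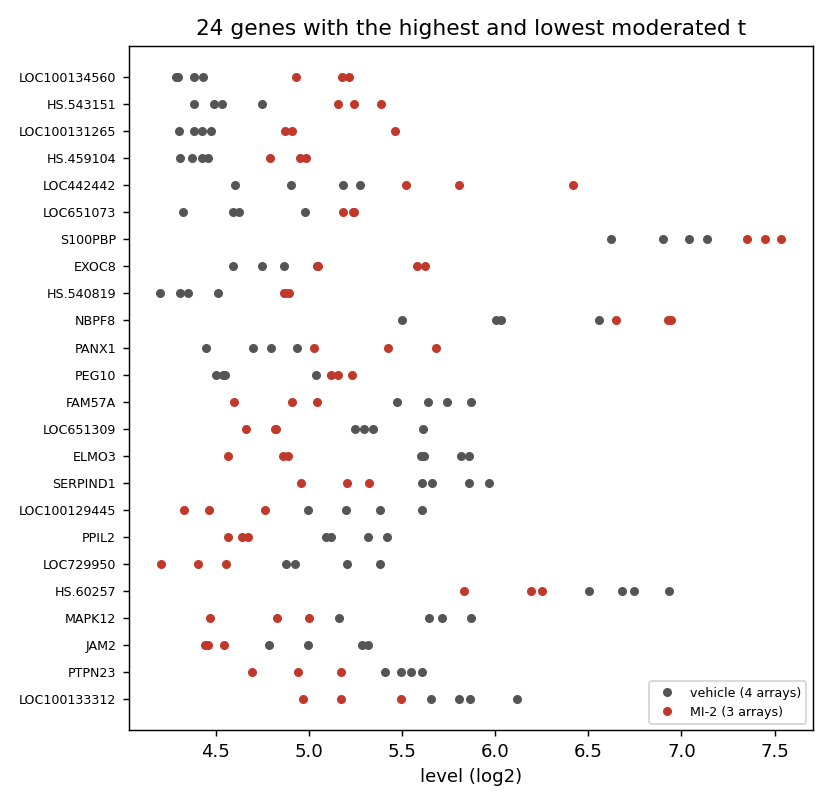
Level (log2, horizontal axis) on the 4 vehicle and 3 MI-2 arrays of TMD8 for the 12 genes with the highest and the 12 with the lowest moderated t among those whose groups do not overlap. Most lie below 6, with S100PBP and HS.60257 among the brighter ones. Detection on all 3 MI-2 or all 4 vehicle arrays was required for this choice.

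By same-numbered differences the genes with the strongest moderated t included brighter immune genes. SPIC, an ETS-family transcription factor of B cells and macrophages, stood at 7.51, 7.04, 8.24 and 8.70 with vehicle and at 6.94, 5.79 and 7.50 with MI-2. Every pair was lower with MI-2, while MI-2 array 3 overlapped the vehicle group. Its change of -1.13 (SE 0.35, adjusted p = 0.85) was the lowest of all genes, and it was -0.85 (SE 0.14, adjusted p = 0.63) with the block. Without MI-2 2, its lowest array, it was -0.65. IL4I1, a secreted amino acid oxidase that restrains lymphocytes, stood at 6.19, 7.51, 7.77 and 6.88 with vehicle and at 5.60, 6.35 and 6.84 with MI-2. The pairs differed by -0.59, -1.16 and -0.93, and the arrays numbered 1 were the lowest of each group. The change was -0.82 (SE 0.35) by group means and -0.89 (SE 0.15, adjusted p = 0.63) with the block, against 0.83 in HBL-1 (difference -1.65, SE 0.50). Without MI-2 1 it was -0.49. IL4I1 was at -0.36 and SPIC at -0.58 in the authors' deposited log2 values.

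ACER2, a Golgi ceramidase, was at -0.79 (SE 0.13) with the block, although vehicle 4 (5.39) lay within the range of the MI-2 arrays. By group means ACER2 was at -0.57, but its other probe was at -0.09. NACA2, a retrogene copy of NACA whose probe may also read NACA, was at -0.62 (SE 0.11) and LOC100129445 at -0.88 (SE 0.15) in that fit. On the higher side the block gave LOC100134560, PEG10 (0.64, SE 0.10), CDC2L2, now called CDK11A, a splicing-linked kinase with a near-identical neighbour (0.72, SE 0.14), LOC442442 and PM20D2, a dipeptidase (0.53, SE 0.10). Each of these 10 genes had an adjusted p of 0.63 with the block.

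Cell cycle lists lay lower by group means than with the block. Mitosis genes (31 measured, 11 higher, 20 lower) had a median of -0.07 by group means and 0.01 with the block, and lay at -0.36 on vehicle array 3 and -0.31 on MI-2 array 3 against 0.16 and 0.21 on the arrays numbered 1 and 0.20 on vehicle array 4. S phase genes (29 measured, 6 higher, 23 lower) had a median of -0.14, or -0.04 with the block, and lay highest on vehicle array 4 (0.30). The block values are those without vehicle 4. CHAF1B, a chromatin assembly subunit, was at -0.52 (SE 0.20) and PCNA, the replication clamp, at -0.24 (SE 0.15) with the groups apart, neither past the threshold.

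In the B cell receptor and identity list (25 measured) 10 were higher and 15 lower, with a median of 0.00. The receptor subunit CD79B was at 0.29 (SE 0.13). The complement receptor CR2, detected on only 2 of 4 vehicle arrays and on none with MI-2, was at least 1.07-fold lower. ABC-type lymphoma genes (19 measured) had a median of -0.03, with FOXP1, a B cell transcription factor, at 0.38 (SE 0.19) and its groups apart. Germinal centre-type genes (14 measured) had a median of -0.06, between STAP1 at 0.22 (SE 0.23) and DENND3 at -0.39 (SE 0.17). In the BCL2 family (18 measured, 13 higher, 5 lower, median 0.07) BAD and BID, promoters of apoptosis, had all MI-2 arrays below all vehicle arrays, at -0.41 (SE 0.15) and -0.18 (SE 0.12). The adjusted p was 0.929 for BAD and 0.999 for the other genes named from these lists (limma).

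Heat shock genes (23 measured) had a median of -0.06. DNAJB4, a co-chaperone, was at 5.06, 4.82, 4.44 and 4.999 with vehicle and at 5.28, 5.18 and 5.90 with MI-2, so that MI-2 array 3 carried much of the change of 0.62 (SE 0.17, adjusted p = 0.766). DNAJB6, another co-chaperone, had the groups apart at -0.22 (SE 0.12). NRF2 antioxidant genes (22 measured) had a median of 0.02, with NQO1, a quinone reductase, at 0.26 (SE 0.16). Metallothioneins and zinc export genes (9 measured) had a median of 0.20 by group means, -0.01 with the block and -0.11 without MI-2 3, with MT1E, a metal-binding protein, at 0.66 (SE 0.28). MAPK and AP-1 immediate early genes (20 measured) had a median of 0.03, with DUSP1, a MAPK phosphatase, at 0.45 (SE 0.21) and the AP-1 subunit JUN at -0.43 (SE 0.22), which was lower in all 3 pairs. With the block the list's median was -0.03. At an unadjusted p under 0.05, 3 members were lower with the block (3.39% of all genes) against 0 by group means (2.49%). They were JUN and, named after their values were seen, DUSP6 and PHLDA1, both feedback genes of growth factor signalling. Medians were 0.02 for p53 targets (20 measured), -0.02 for MYC targets and ribosome biogenesis (32), -0.02 for cholesterol and fatty acid synthesis (26), -0.07 for glycolysis and hypoxia genes (26) and 0.03 for proteasome subunits (31). In the cholesterol and fatty acid list ACACA, which makes malonyl-CoA, stood at 8.25, 8.33, 8.14 and 8.28 with vehicle and at 7.86, 8.05 and 7.82 with MI-2. All its MI-2 arrays lay below all vehicle arrays (-0.34, SE 0.14, adjusted p = 0.999), and it was at -0.28 in HBL-1. MVK, mevalonate kinase, also had the groups apart (-0.47, SE 0.24). In this list 1 member was lower at an unadjusted p under 0.05 by group means (2.49% of all genes) and 3 with the block (3.39%). The 3 were ACACA, MVK and, named after its values were seen, the lipogenic regulator SREBF1. Groups were also apart for the glycolytic enzyme ALDOA (-0.07, SE 0.12), the amino acid transporter SLC7A5 (0.19, SE 0.16) and the proteasome subunits PSMD3 (0.29, SE 0.14) and PSMD7 (-0.20, SE 0.11).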

How the data were processed

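Per the file headers, the authors deposited a linear signal intensity and a detection p-value for each probe of 16 Illumina bead arrays, and per the labels the RNA was biotin-labelled. The authors also deposited log2 values of 34687 named genes, whose processing is not given in the sources used here. Their background, scale and centring are unknown, and each array's median is 6.50. The submitters' processing notes list Partek, with no role. Probes were named by joining both tables by value. On all 16 arrays 34671 genes matched, within 0.02 log2 except for 99 matched by shared order within 0.1. After arrays were shuffled 0 matched within 0.02, in a search limited to shorter runs of probes than the join. Of the 17573 genes tested, 10630 names are current RefSeq symbols and 1950 synonyms, and 4993 are in neither.

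Intensities were processed with limma's neqc (version 3.58.1, R 4.3.3; offset 16, background from detection p-values, quantile normalization). A probe was kept where 3 or more of the 16 arrays gave it a detection p below 0.05, and the brightest represented its gene. The fit was lmFit and eBayes on 6 group means over 16 arrays, checked on simulated data. The number of arrays limits the precision (median SE 0.157). Alternatives were the array number as a block, TMD8 arrays alone, the deposited log2 values, median scaling, no background correction, other filters, mean of probes, a trended robust prior and each array left out. Same-numbered arrays deviated together (correlations of 0.291, 0.156 and 0.309 against -0.219 to 0.026 for other numbers), so the numbers were used as pairs. The labels do not say what arrays of the same number share. The pairing rests on this check alone, and it was weakest for number 2 (0.156).

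Arrays and gene lists were chosen with earlier results of these data known. Named genes were the 12 highest and 12 lowest by t with groups apart, a list of pathway genes where measured (CCL4 was below the filter, and 1 gene is not reported here), each list's extremes by t and members with groups apart, and the 5 highest and lowest by t for the line difference and the block. Promoter sequences are from RefSeq (GRCh38.p14).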

Additional observations from a re-analysis of the deposited data

Results flagged for a closer look

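In 8 of 135 groups of 4 vehicle values tested, 1 array lay far from the other 3 (Dixon's rule, which chance meets in about 1 of 20 groups). Vehicle 4 was high for PEG10 (5.04, median 4.54) and CCL5 (6.35, median 5.98), and low for SLC7A5, an amino acid transporter (11.17, median 11.47). Vehicle 2 was low for SEC61B (12.43, median 12.56), for SESN1, a p53 target (4.90, median 5.13), and for the proteasome subunit PSMD7 (10.22, median 10.38). Vehicle 1 was high for the glycolytic enzyme ALDOA (10.86, median 10.80). Vehicle 3 was high for the median deviation of MAPK and AP-1 immediate early genes (0.278, median -0.063).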

How the results depend on the processing

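Limma called 0 genes in the main setting and in 14 of 17 alternatives, and 1 gene, LOC100134560, without a filter on dim probes (adjusted p = 0.0134), with a stricter filter (0.0326) and with the mean of a gene's probes (0.0439). Over the alternatives its adjusted p ran from 0.0134 to 1. The count at an unadjusted p under 0.05 was 816, and 424 with scaling to array medians, 1671 without a filter (34671 genes), 1628 over all the deposited log2 values (34687 genes, an alternative chosen after seeing the data), and 689 to 1036 with arrays left out. Genes whose groups did not overlap numbered 980, and 1999 without a filter, 2024 over all the deposited values, and 1522 to 2575 with arrays left out, where fewer arrays have to be apart. The replicate block changed no call (0 genes, 1086 at an unadjusted p under 0.05), and the line difference was 0 in all its alternatives. The cause was not tested except where fewer arrays or more genes set it. With scaling to array medians the median change of all genes was -0.18, and changes are relative to it. Of 109 named genes 92 kept their sign throughout, as did all 24 with the strongest t. Of 26 list medians 6 kept their sign in all alternatives and 20 did not. List medians moved by more than the SD of the list's level between vehicle arrays in 20 of 442 values. Dim probes limit what can be measured: most of the strongest t values lie near the detection floor.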
